A study of Homo sapiens with 18 samples.

Results

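HT-1376 and CAL-29, a pair of established lines of human urinary bladder carcinoma, were compared with each other in 10 CAGE-seq libraries of the 18 in the series, 5 per line. The libraries were chosen by their labels, namely the variants KK, KA, WK, WA and WC of each line, and the 2 libraries labelled KC were left out because the library labelled CAL-29 KC had the profile of HT-1376 (values below). Every library comes from cells that went through 2 stable lentiviral transductions at a multiplicity of infection of 3. The first letter of a variant gives the first transduction, either the blank control vector (K) or the WWOX vector (W, pLenti-GIII-CMV-GFP-2A-Puro), and the second letter gives the second transduction, either the control (K), AP-2α (A, gene TFAP2A) or AP-2γ (C, gene TFAP2C) in pLKO-Neo-CMV. KK therefore carried both controls, KA the control and AP-2α, WK WWOX and the control, WA WWOX and AP-2α, and WC WWOX and AP-2γ, and all cells were selected with puromycin and then G418. WWOX was introduced once per line before the second transduction, so the 3 W libraries of a line share a parent culture, as do the K libraries, and the p-values given here measure the spread between such derivatives of a line and not between independent cultures. HT-1376 was grown in high-glucose DMEM with 15% serum and CAL-29 in DMEM with 10% serum, so the medium and the line cannot be told apart. Values are CPM, that is, read counts scaled to a common library size. A gene entered the comparison if it reached 5 CPM in at least 1 of the 10 libraries, which left 12766 of 16575 genes.

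As background, CAGE sequences the capped 5′ end of RNA, so a gene's value counts the transcripts that start at its promoters. Established tumour lines keep a stable pattern of lineage factors, keratins, silenced loci and genes that are lost outright. In bladder carcinoma, luminal cells express uroplakins, FOXA1, GATA3 and KRT20, while basal and squamous cells express KRT5, KRT14 and TP63. The 9p21 locus with CDKN2A is often deleted in this tumour, GSTM1 is absent from the genome of many people, and cancer-testis genes are germ line genes that tumours may express. CAGE measures RNA and not gene copies, so a gene without tags can be absent or silent.

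The 10 libraries held 14287464 to 17292683 reads on genes, recovered from the CPM values, and 3 reads, taken as the limit for a gene without tags, corresponded to 0.164 to 0.197 CPM. Only counting error enters this limit. Across the tested genes, log2 values correlated at 0.909 to 0.981 (Pearson's r, across genes) between libraries of HT-1376, at 0.868 to 0.962 between those of CAL-29, and at 0.653 to 0.809 between the lines. The library labelled CAL-29 KC correlated at 0.903 to 0.967 with the 5 HT-1376 libraries and at 0.706 to 0.764 with the 5 CAL-29 libraries. WWOX itself was at 22.4, 24.7, 18.6, 19.2 and 23.1 CPM in HT-1376 KK, KA, WK, WA and WC, the order kept in all sentences of this kind, and at 63.7, 51.3, 155, 69.3 and 62.4 CPM in CAL-29. In HT-1376 the W libraries were thus not above the K libraries, and in CAL-29 the library WK stood above the others. TFAP2A was highest within HT-1376 in KA (101 CPM, 69 to 76.9 in the others) and TFAP2C within CAL-29 in WC (339 CPM, 70.3 to 93.1 in the others). A transcript that starts at the CMV promoter of a vector need not be counted at the gene's own start, so these values are no check of the labels. Between the lines, WWOX was lower in HT-1376 (log2 difference -1.76 ± 0.29, adjusted p = 0.00191), while TFAP2A (0.63 ± 0.24, adjusted p = 0.0602) and TFAP2C (0.19 ± 0.33, adjusted p = 0.651) did not pass the test. With TMM scaling, an alternative described below, TFAP2A was called higher in HT-1376 and TFAP2C was not called.

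A log2 difference is HT-1376 minus CAL-29 on the scale of log2(CPM + 0.5), over 5 pairs of libraries of the same variant. It is given with the moderated standard error of limma. There the variance of a gene is drawn toward that of genes of similar level, so this is not the plain error over the pairs. It can be smaller than that error for genes that vary much between pairs. A gene was called at an adjusted p under 0.05 (limma with the variant as a block, Benjamini-Hochberg adjustment over all 12766 genes). Of the tested genes 1906 (14.9%) were higher in HT-1376 and 4550 (35.6%) were lower. Counts of list members called higher or lower are to be read against these shares of 14.9% and 35.6%, and leaving out libraries can also change how many members reach the filter. A member that reached the filter through a single line was bound to have its highest value in that line. Beyond 2-fold, 1249 (9.78%) were higher and 3562 (27.9%) were lower. The size of this imbalance depended on the scaling. The median log2 difference of all genes was -0.46 with the deposited CPM, and TMM scaling moved it by 0.36 to -0.11, with 2847 genes (22.3%) higher and 3258 (25.5%) lower. All 1906 genes called higher with the deposited CPM were also called higher with TMM scaling, 3258 of the 4550 lower genes remained lower, and no gene was called in opposite directions. Log2 differences in the text are those of the deposited CPM and are to be read against the median of -0.46. The difference had the same sign in 5 of 5 pairs in 6365 (49.9%) of the tested genes. Among the 6456 called genes these were 5591, a share raised by calling genes on the same pairs. In 4394 tested genes (34.4%) the values of the lines did not overlap, and statements of no overlap are to be read against this share. At the level of a single gene, the line took a median of 47.4% of the variance over the 10 libraries, the variant 23.3% and the rest 22.6%. The variant and the rest have equal degrees of freedom, so the variant took about as much as the unexplained spread. Among the genes called beyond 2-fold the median share of the line was 72.5%, which had to be high because these genes were picked by their line difference.

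CDKN2A was high in HT-1376 and nearly without tags in CAL-29. CDKN2A (chr9:21967752-21995301, minus strand on hg38) encodes p16, an inhibitor of CDK4 and CDK6, and p14ARF, which stabilises p53, from 2 promoters whose tags are summed in 1 value here. HT-1376 had 262, 219.6, 493, 513 and 418 CPM and CAL-29 had 0.06, 0, 0, 0.22 and 0.34 CPM, the highest of which was 6 reads. The lines did not overlap, and the log2 difference was 9.21 ± 0.25, adjusted p = 1.14e-06. The library labelled CAL-29 KC had 273 CPM and HT-1376 KC had 294 CPM. RT-112, the remaining line of the series, had 0 to 0.26 CPM over 6 libraries. CDKN2B, which encodes the related inhibitor p15 (chr9:22002903-22009305, minus strand), was at 20.4, 19.1, 25.9, 23.6 and 25.8 CPM in HT-1376 and at most 0.11 CPM in CAL-29, at least 138-fold lower when the limit of 3 reads per library is put in place of the CAL-29 values (log2 difference 5.48 ± 0.28, adjusted p = 8.65e-06). MTAP, an enzyme of methionine salvage (chr9:21802636-21937651, plus strand), was at 12, 12.9, 5.39, 13.2 and 6.74 CPM in HT-1376 and had no read in any of the 5 CAL-29 libraries (at least 60.4-fold lower, log2 difference 4.32 ± 0.35, adjusted p = 6.26e-05).

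The genes without tags in CAL-29 were neighbours. In chromosome order, the table holds MLLT3, FOCAD, FOCAD-AS1, HACD4, KLHL9, MIR31HG, MTAP, CDKN2A, CDKN2B-AS1, CDKN2B, DMRTA1 and ELAVL2. MIR31HG, MTAP and CDKN2B-AS1 had 0 reads in the 5 CAL-29 libraries, CDKN2B at most 2 and CDKN2A at most 6. MIR31HG, a non-coding RNA named here after its values were seen, was at 4.31 to 14.5 CPM in HT-1376. On the telomeric side, FOCAD (8.04 to 24.2 CPM in CAL-29, 3.97 to 6.02 in HT-1376, log2 difference -1.43 ± 0.31, adjusted p = 0.00689), HACD4 (4.92 to 11.6 against 1.05 to 1.73, -2.17 ± 0.33, adjusted p = 0.00133) and KLHL9, an adaptor of a ubiquitin ligase (7.93 to 23.7 against 3.9 to 5.52, -1.53 ± 0.32, adjusted p = 0.00553), were lower in HT-1376. On the other side DMRTA1 was near 0 in both lines (at most 0.32 CPM), and ELAVL2, a neuronal RNA-binding protein, was higher in CAL-29 (1.16 to 5.36 against 0 to 0.26 CPM). Of the 8 tested genes in the list of this region 3 were higher in HT-1376 and 4 lower, against 14.9% and 35.6% of all genes, and the same counts were found with TMM scaling.

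**Figure D1:**
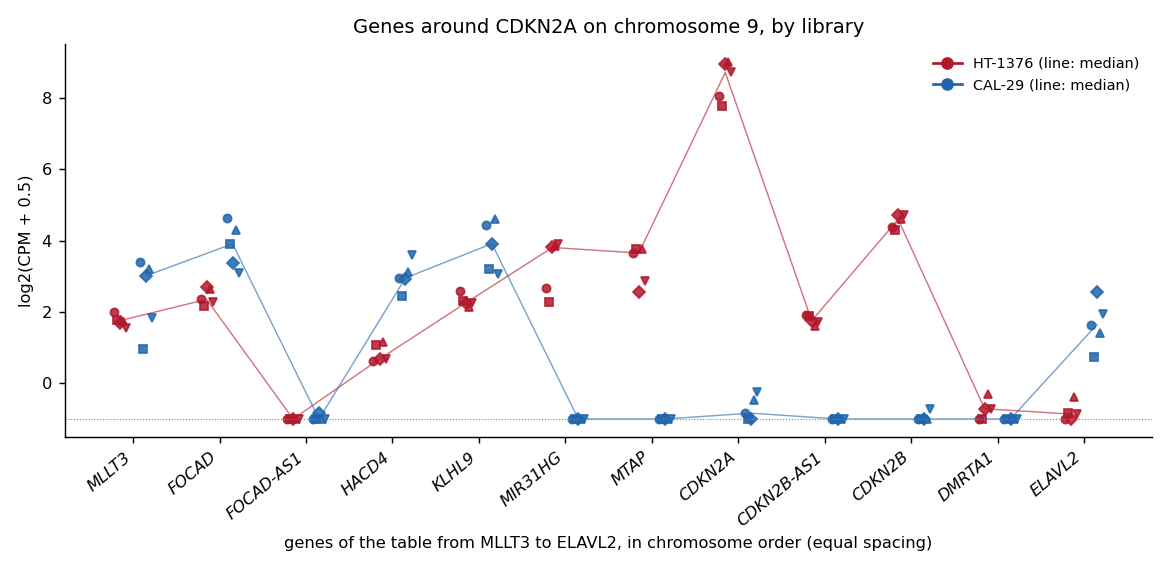
Values of the 12 genes of the table from MLLT3 to ELAVL2 on chromosome 9, as log2(CPM + 0.5) on the vertical axis and in chromosome order at equal spacing on the horizontal axis, with 1 point per library (5 of HT-1376 in red, 5 of CAL-29 in blue), a line through the medians and a dotted line at 0 CPM. From MIR31HG to CDKN2B the CAL-29 points lie at or near the dotted line while those of HT-1376 reach 513 CPM, and from FOCAD to KLHL9 the CAL-29 points of the tested genes lie above those of HT-1376.

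The promoter windows of CDKN2A, CDKN2B and MTAP are shown because none of these genes had more than 6 reads in a CAL-29 library of the comparison. The single CDKN2A value does not tell the promoters of p16 and p14ARF apart. Each is 300 bases of RefSeq (GRCh38.p14), 250 before and 50 from the annotated start, written 5′ to 3′ on the gene's strand with CpG dinucleotides in capitals.
CDKN2A, the start of p16, chr9:21974808-21975107, minus strand: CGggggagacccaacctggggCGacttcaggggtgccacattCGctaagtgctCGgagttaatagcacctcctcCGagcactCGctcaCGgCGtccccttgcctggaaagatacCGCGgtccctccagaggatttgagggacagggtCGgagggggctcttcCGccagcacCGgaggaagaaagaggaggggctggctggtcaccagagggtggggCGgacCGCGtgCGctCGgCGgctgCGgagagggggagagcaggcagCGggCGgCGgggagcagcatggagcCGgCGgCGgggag
CDKN2A, the start of p14ARF, chr9:21995275-21995574, minus strand: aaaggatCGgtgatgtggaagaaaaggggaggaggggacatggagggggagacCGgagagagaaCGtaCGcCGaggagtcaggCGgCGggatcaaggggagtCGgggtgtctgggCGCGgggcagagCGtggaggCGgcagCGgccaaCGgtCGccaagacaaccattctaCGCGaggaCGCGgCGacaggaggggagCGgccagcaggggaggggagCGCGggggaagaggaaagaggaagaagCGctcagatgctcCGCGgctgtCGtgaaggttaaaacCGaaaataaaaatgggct
CDKN2B, chr9:22009256-22009555, minus strand: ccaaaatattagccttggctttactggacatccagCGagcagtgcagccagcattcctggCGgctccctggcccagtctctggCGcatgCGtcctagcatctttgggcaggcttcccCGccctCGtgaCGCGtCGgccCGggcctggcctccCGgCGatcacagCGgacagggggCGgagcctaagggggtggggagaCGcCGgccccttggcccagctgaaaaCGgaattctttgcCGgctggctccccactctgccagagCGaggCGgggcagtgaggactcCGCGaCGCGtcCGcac
MTAP, chr9:21802386-21802685, plus strand: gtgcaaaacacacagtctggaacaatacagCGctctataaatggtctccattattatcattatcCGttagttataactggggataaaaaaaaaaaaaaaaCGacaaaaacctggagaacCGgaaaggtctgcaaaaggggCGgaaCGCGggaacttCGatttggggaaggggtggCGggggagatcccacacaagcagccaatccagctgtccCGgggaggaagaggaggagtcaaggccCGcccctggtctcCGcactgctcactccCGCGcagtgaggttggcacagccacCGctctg
The windows held 26, 28, 25 and 15 CpG, against a median of 25 in the 14278 windows of the tested genes and of 14 in all 35116 windows of the table. GGGCGG or its complement CCGCCC was present in the windows of p16, CDKN2B and MTAP and not in that of p14ARF, and TATAAA or TTTATA in that of MTAP only. GGGCGG stood in 66.8% and TATAAA in 6.28% of the windows of tested genes on either strand.

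CALB2, which encodes the calcium buffer calretinin and is used in pathology as a marker of mesothelium (chr16:71358713-71390436, plus strand), was the next marker. HT-1376 had 53.9, 143, 372, 310.0 and 248 CPM and CAL-29 0, 1.27, 0, 0.11 and 0.22 CPM. KK was the lowest HT-1376 library and the lines did not overlap (log2 difference 8.01 ± 0.49, adjusted p = 1.68e-05). The library labelled CAL-29 KC had 217 CPM, and RT-112 0.06 to 0.61 CPM. Other mesothelial markers did not follow it. UPK3B (5.24 to 48.9 CPM in HT-1376, 399.5 to 936 in CAL-29) and BNC1 (0.07 to 0.51 against 5.47 to 14.7) were lower in HT-1376, and MSLN and ITLN1 reached at most 1.38 CPM in any of the 10 libraries. Among 22 tested genes of EF-hand calcium-binding proteins, 8 were higher in HT-1376 (36.4% against 14.9% of all genes) and 4 lower (18.2% against 35.6%). S100A4, which binds myosin and is linked to cell motility, was at 2660.4, 3528, 576, 471 and 1803 CPM in HT-1376 and at 5.05, 7.85, 17.4, 5.02 and 9.5 CPM in CAL-29 (log2 difference 7.31 ± 0.53, adjusted p = 3.93e-05), so the lowest HT-1376 library was far above the highest of CAL-29. S100A3 (10.0 to 49 against 0 to 0.11 CPM) was seen almost only in HT-1376. S100A6 had the largest difference in mean CPM among the called genes ranked by the naming rule. It was at 21573 to 27386 CPM in HT-1376 against 3894 to 12068 in CAL-29 (1.97 ± 0.37, adjusted p = 0.0036). CALML3, a calmodulin of stratified epithelium, went the other way (0.33, 1.13, 34.4, 124 and 31.2 CPM in HT-1376, 194 to 591 in CAL-29, -4.66 ± 0.90, adjusted p = 0.00421). S100A8 and S100A9, the subunits of calprotectin, ranged from 733 to 24439 and 1164 to 19507 CPM within HT-1376 and did not pass the test (1.88 ± 0.85, adjusted p = 0.0933 and 1.87 ± 0.81, adjusted p = 0.0858).

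GSTM1 marked CAL-29. GSTM1 (chr1:109687814-109709039, plus strand), a glutathione S-transferase of the mu class, was at 43.6, 33, 68.5, 53.9 and 38.2 CPM in CAL-29 and had no read in any of the 5 HT-1376 libraries. The log2 difference was -6.53 ± 0.29, adjusted p = 4.07e-06, and the level in CAL-29 was at least 265-fold higher than 3 reads per library. HT-1376 KC had 0.07 CPM, the library labelled CAL-29 KC had none, and RT-112 had 0 to 0.06 CPM. Genes of the mu class are near-identical copies, so reads could be split between them, which was not tested. GSTM4 (0.08 ± 0.20, adjusted p = 0.75) and GSTM3 (0.56 ± 0.45, adjusted p = 0.313) did not pass the test. Of 14 tested transferases 2 were higher (14.3% against 14.9% of all genes) and 5 lower (35.7% against 35.6%) in HT-1376, and 1 was higher without the KK, WK or WA libraries. The 2 higher ones were GSTO1 and MGST3, given whether or not the naming rule picks them. GSTP1, the most abundant of them, was at 1276, 992, 2191, 2526 and 2595 CPM in HT-1376 and at 10278, 11763, 7161, 4257 and 8465 CPM in CAL-29 (-2.15 ± 0.42, adjusted p = 0.00451), and GSTA4 (-2.66 ± 0.46, adjusted p = 0.00244) and MGST2 (-1.63 ± 0.20, adjusted p = 0.000535) were lower as well. In the wider list of NRF2 targets and detoxifying enzymes, 5 of 34 were higher (14.7% against 14.9% of all genes) and 15 lower (44.1% against 35.6%), 2 and 11 without the WA libraries, and 3 higher without KK, WK or WC. The 5 higher ones, given in full whether or not the naming rule picks them, were KEAP1, TKT, AKR1B1, CBR1 and CYP1A1. ALDH1A3, which makes retinoic acid, was at 0.23 to 1.05 CPM in HT-1376 against 359.6 to 715 in CAL-29 (-8.93 ± 0.30, adjusted p = 1.14e-06), the glutathione peroxidase GPX2 at 0.33 to 7.51 and 333 to 594 (-7.21 ± 0.43, adjusted p = 1.56e-05), and UGT1A10, which shares exons with other UGT1A genes, at 0 to 0.06 and 40.5 to 221 (-7.63 ± 0.38, adjusted p = 8.03e-06). NQO1, a classical NRF2 target, did not pass the test (0.46 ± 0.29, adjusted p = 0.205), whereas NFE2L2, the gene of NRF2 itself, was lower in HT-1376 (-1.53 ± 0.39, adjusted p = 0.0135, adjusted p = 0.0531 without the WA libraries). The window of GSTM1 is shown because the gene was absent from the tags of HT-1376.
GSTM1, chr1:109687567-109687866, plus strand: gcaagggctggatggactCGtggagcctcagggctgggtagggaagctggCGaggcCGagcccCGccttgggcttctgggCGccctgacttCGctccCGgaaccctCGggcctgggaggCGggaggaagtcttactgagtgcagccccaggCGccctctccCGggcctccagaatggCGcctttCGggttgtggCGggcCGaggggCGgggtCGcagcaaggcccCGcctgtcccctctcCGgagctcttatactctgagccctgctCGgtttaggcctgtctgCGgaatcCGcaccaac
It held 22 CpG and both GGGCGG and GCCNNNGGC, a form of the AP-2 motif that was present in 31.3% of the windows of tested genes.

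**Figure D2:**
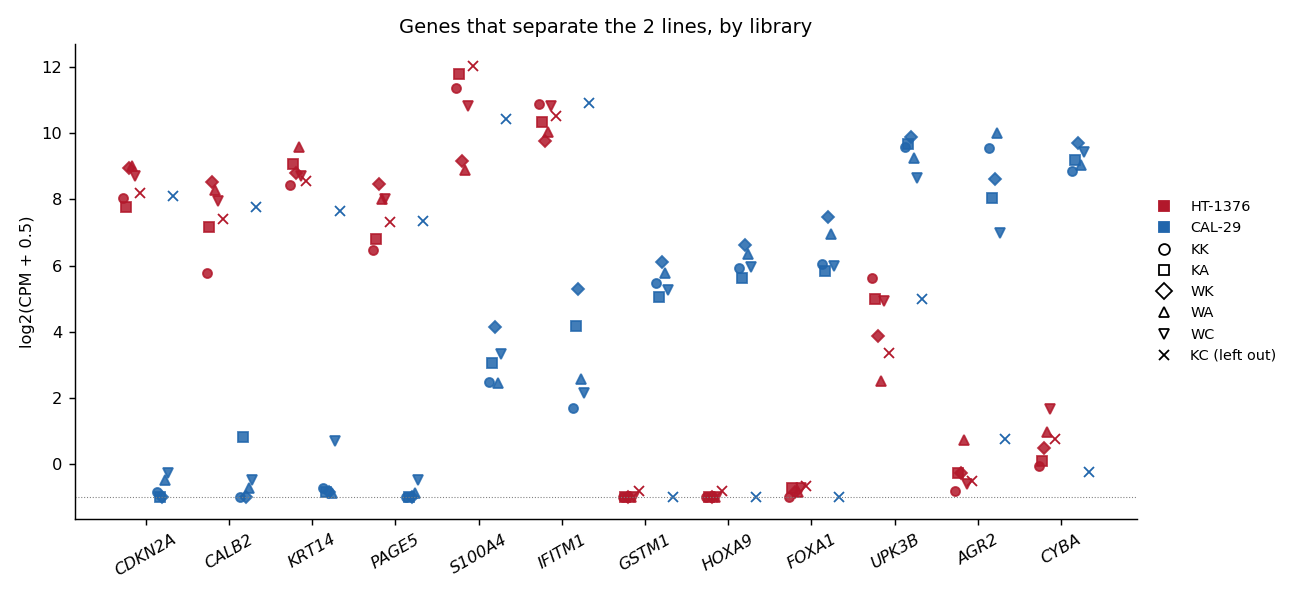
Values of 12 genes as log2(CPM + 0.5) in each library, HT-1376 in red and CAL-29 in blue, with the variant as the shape of the point, the libraries labelled KC, which were left out of the fit, as crosses, and a dotted line at 0 CPM. For each gene the 5 points of one line lie apart from those of the other, and the blue crosses lie with the red points.

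Of 20 tested genes of luminal urothelial differentiation none was called higher in HT-1376 and 13 were lower (65% against 35.6% of all genes), with a median of -1.85 and the same counts under TMM scaling. Without the WK libraries 1 of 16 was higher and 10 lower, voom called 2 higher, and in the variants without the WWOX vector 2 of 13 were higher and 5 lower. Some members, among them FOXA1 and KRT20, reached the filter through CAL-29 only. With 5 CPM required in at least 5 libraries, none of 13 was higher and 8 were lower. FOXA1, a pioneer factor of luminal cells, was at 66, 56.8, 176, 124 and 63 CPM in CAL-29 and at 0, 0.11, 0.06, 0.06 and 0.11 CPM in HT-1376 (-7.28 ± 0.34, adjusted p = 4.85e-06, at least 543-fold higher in CAL-29). UPK3B (-5.01 ± 0.43, adjusted p = 8.95e-05), KRT20 (-4.57 ± 0.33, adjusted p = 4.22e-05), TBX2 (-3.19 ± 0.34, adjusted p = 0.000279), UPK2 (-2.40 ± 0.47, adjusted p = 0.00457) and PPARG, the nuclear receptor upstream of uroplakins (-1.5 ± 0.34, adjusted p = 0.00762), were also lower in HT-1376. GATA3 did not pass the test (73.8 to 243 CPM in HT-1376, 93.8 to 369.7 in CAL-29, -0.54 ± 0.45, adjusted p = 0.335), nor did the uroplakin UPK1B (269 to 946 against 20.6 to 560.2, 1.61 ± 0.83, adjusted p = 0.136). FOXA1, KRT20 and TBX2 were thus close to 0 in HT-1376, while GATA3 and UPK1B stayed high in it.

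Keratins divided between the lines. The pair of simple epithelial keratins KRT8 (787 to 1181 CPM in HT-1376, 154 to 236 in CAL-29, 2.43 ± 0.20, adjusted p = 7.98e-05) and KRT18 (2650.2 to 4389 against 599 to 1207, 1.94 ± 0.23, adjusted p = 0.000443) and also KRT7 were higher in HT-1376. KRT7 was at 8612, 7331, 5108, 6648 and 5498 CPM there and at 485, 312, 567, 385 and 399 CPM in CAL-29 (3.95 ± 0.25, adjusted p = 2.11e-05). KRT19 went the other way, with 84.7, 94.9, 378, 235 and 308 CPM in HT-1376 and 2104, 3041, 5569, 3476 and 5277 CPM in CAL-29 (-4.30 ± 0.23, adjusted p = 9.91e-06), as did KRT80 (10.7 to 25.5 against 248 to 680.4, -5.07 ± 0.27, adjusted p = 9.64e-06). None of these 5 keratins overlapped between the lines, where 34.4% of all tested genes did not overlap. Among basal and squamous genes, 7 of 28 were higher in HT-1376 (25%) and 8 lower (28.6%), which became 11 and 6 with TMM scaling, 5 and 8 without the WK libraries and 4 and 8 without the WA libraries. KRT14, the keratin of basal cells, was at 346, 535, 447, 766 and 421 CPM in HT-1376 and at 0.11, 0.06, 0.06, 0.05 and 1.12 CPM in CAL-29 (9.43 ± 0.34, adjusted p = 1.54e-06). Its usual partner KRT5 was lower in HT-1376 (0.2 to 10.7 against 20.9 to 156 CPM, -3.27 ± 0.42, adjusted p = 0.000628), and so was KRT17 (2.7 to 48.5 against 184 to 920.0, -4.51 ± 0.57, adjusted p = 0.000576). TP63, a basal master regulator (-0.72 ± 0.37, adjusted p = 0.135), and CD44 (0.58 ± 0.26, adjusted p = 0.0914) did not pass, although CD44 did with TMM scaling (0.95, adjusted p = 0.0151).

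E-cadherin, CDH1, was at 146, 168, 80.6, 87.2 and 96.5 CPM in HT-1376 and at 831, 434, 571, 708 and 272 CPM in CAL-29 without overlap (-2.24 ± 0.28, adjusted p = 0.000541), and EPCAM (-1.80 ± 0.26, adjusted p = 0.00108) and the epithelial splicing factor ESRP1 (-1.99 ± 0.30, adjusted p = 0.00127) were lower too. Of 20 genes of epithelial adhesion and splicing 2 were higher (10% against 14.9% of all genes) and 7 lower (35% against 35.6%), with TMM scaling 5 and 6, and without the KK libraries none and 6, without KA 1 and 7 and without WK 1 and 5. Of 15 claudins and tight junction genes none was higher and 8 were lower (53.3% against 35.6% of all genes), but only 4 with TMM scaling, 5 without the KK libraries, 4 without WA and 3 without WK. CLDN12 (-1.85 ± 0.30, adjusted p = 0.00186) and CLDN9 (-2.86 ± 0.51, adjusted p = 0.0028) kept the call under these alternatives. Genes of the mesenchymal state did not move to one side, with 4 of 18 higher (22.2%) and 7 lower (38.9%). FBN1 (8.83 to 43.8 against 0 to 0.6 CPM) and S100A4 were higher in HT-1376, and AXL (0.13 to 6.25 against 19.9 to 42.6), fibronectin FN1 (17.3 to 82.4 against 32.2 to 999) and N-cadherin CDH2 (0 to 0.06 against 0.94 to 17.9) were lower. VIM had no read in HT-1376 and 19.7, 1.88, 0.11, 0.11 and 1.57 CPM in CAL-29 (-2.04 ± 0.72, adjusted p = 0.0438), a difference that was not called without the KA libraries (adjusted p = 0.0939) or without WC (0.0909), and without KK the gene did not reach the filter. In the list of matrix and integrins 8 of 41 were higher (19.5%) and 12 lower (29.3%), near the shares of all genes. COL1A2 (2.5 to 46.1 against 0 to 0.06) and ITGA1 (12.4 to 30.2 against 0.17 to 1.57) were seen in HT-1376, and MMP7 (0 to 0.06 against 1.4 to 29.8) and COL4A2 (0.13 to 1.75 against 4.25 to 117) in CAL-29. Of 13 tested secreted mucosal genes 2 were higher (15.4% against 14.9% of all genes) and 7 lower (53.8% against 35.6%) in HT-1376. Their median log2 difference was -2.99, and TMM scaling gave the same counts. MUC1 was higher (23.1 to 103 against 1.52 to 10.8, 3.51 ± 0.49, adjusted p = 0.00099). MUC20 (-5.42 ± 0.52, adjusted p = 0.000151), MUC4 (-5.27 ± 0.86, adjusted p = 0.0019) and AGR2, a disulfide isomerase of mucous cells, were lower in HT-1376. AGR2 was at 0.07, 0.34, 0.34, 1.15 and 0.16 CPM in HT-1376 and at 744, 266, 388, 1029.9 and 127 CPM in CAL-29 (-8.88 ± 0.37, adjusted p = 3.25e-06).

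HOX genes with their non-coding neighbours, which set position along the body axis, were found in CAL-29 and were near 0 in HT-1376. Of 35 genes of this list with values, 25 reached the filter, and 25 of 25 were lower in HT-1376 without overlap (median log2 difference -4.26, and -4.78 with 9 genes at their bound of 3 reads per library). The filter was reached through CAL-29, so the count describes genes that had to be higher in a line, and the other 10 stayed at or under 4.31 CPM in all libraries. HOXA9 was at 60.4, 48.9, 99, 80.8 and 61.6 CPM in CAL-29 and had no read in HT-1376 (-7.10 ± 0.28, adjusted p = 2.43e-06, at least 392-fold higher in CAL-29), and HOXA10 was at 30.7, 25.8, 50.8, 30.5 and 27.8 CPM with no read in HT-1376 either (-6.03 ± 0.30, adjusted p = 7.38e-06). HOXB7 (0.33 to 4.55 against 51 to 75.7 CPM) and HOXD11 (1.02 to 3.29 against 56.3 to 104) show the same order in other clusters, and HOXC13 kept the highest level in HT-1376 (1.18 to 6.39 against 12.7 to 72.4, log2 difference -3.31). The sum over the list was 6.19 to 22.2 CPM in HT-1376 and at least 425 CPM in each CAL-29 library.

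Of 41 tested signalling genes of the WNT, TGF-beta and hedgehog pathways, 4 were higher (9.76% against 14.9% of all genes) and 24 lower (58.5% against 35.6%) in HT-1376. Their median log2 difference was -1.22. TMM scaling gave 7 higher and 21 lower, and without the WA libraries 20 were lower. BMP2, DKK1, TGFBR2 and SMO reached the filter through CAL-29 only. Among ligands and inhibitors, BMP2 was at 0.07 to 0.96 CPM in HT-1376 against 14.8 to 59.8 in CAL-29 (-4.76 ± 0.36, adjusted p = 4.84e-05), TGFB1 at 6.51 to 43.8 and 47.9 to 115 (-1.95 ± 0.28, adjusted p = 0.00108), and DKK1, a secreted WNT inhibitor, at 0.26, 0.85, 4.07, 2.88 and 0.82 and 62.7, 121, 45.4, 129 and 346 (-5.90 ± 0.58, adjusted p = 0.000166). Among receptors, TGFBR2, the type II receptor of TGF-beta, was at 0.07, 0.4, 1.09, 0.45 and 0.71 CPM in HT-1376 and at 48, 34.3, 57.2, 67.6 and 37.7 CPM in CAL-29 (-5.60 ± 0.32, adjusted p = 1.23e-05), and SMO, the transducer of hedgehog, at 0 to 0.99 and 23.1 to 52.8 (-5.16 ± 0.30, adjusted p = 1.5e-05). SMAD3, which carries the TGF-beta signal to the nucleus, was lower by a smaller step (-1.93 ± 0.32, adjusted p = 0.00208). TGFBR2 and SMO were thus close to the 3-read limit in at least 1 HT-1376 library while every CAL-29 library was above 23 CPM.

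Cancer-testis genes showed the opposite order to the HOX genes. Of 28 genes of this list with values, 23 reached the filter, and all 23 of these were higher in HT-1376 (22 without overlap, median log2 difference 4.86, and 6.45 with 18 genes at their bound). As with the HOX genes, most reached the filter through a single line and so had to differ. PAGE5 was at 88.8, 111.95, 351, 258 and 259 CPM in HT-1376 and at 0, 0, 0, 0.05 and 0.22 CPM in CAL-29 (8.42 ± 0.33, adjusted p = 2.43e-06), PAGE2 at 28.2, 108, 153, 91.5 and 335 and 0, 0, 0, 0 and 0.22 (7.65 ± 0.43, adjusted p = 1.21e-05), and MAGEA12 at 82.7, 95.8, 72.2, 67.7 and 82.9 and 0, 0, 0, 0.05 and 0.17 (7.21 ± 0.26, adjusted p = 1.54e-06). XAGE1A varied within HT-1376 (204, 246, 198, 7.03 and 66.3 CPM) and stayed at most 0.06 CPM in CAL-29 (7.39 ± 0.72, adjusted p = 0.00016). MAGEA, PAGE, GAGE and XAGE genes are families of near-identical copies on the X chromosome, so the split of tags within a family is uncertain, while the sum of the list, 984 to 1510.0 CPM in HT-1376 and 75.4 to 135 CPM in CAL-29, does not depend on it where tags stay within the list. LAGE3, a member expressed in all tissues, made up nearly all of the sum in CAL-29 (73.9 to 135 CPM there, 134 to 188 in HT-1376). VCX, another X-linked testis gene with close copies, had the largest log2 difference in favour of HT-1376 among the called genes without overlap ranked by the naming rule (369, 327, 579, 844 and 432 CPM against 0.11, 0.22, 0, 0.11 and 0.39, 9.52 ± 0.30, adjusted p = 1.14e-06).

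The 3 windows below, 300 bases each as above, are examples, shown because HOXA9 and FOXA1 had high values in CAL-29 and PAGE5 in HT-1376. The single value of a gene does not tell whether the start of its window was the one in use.
HOXA9, chr7:27165488-27165787, minus strand: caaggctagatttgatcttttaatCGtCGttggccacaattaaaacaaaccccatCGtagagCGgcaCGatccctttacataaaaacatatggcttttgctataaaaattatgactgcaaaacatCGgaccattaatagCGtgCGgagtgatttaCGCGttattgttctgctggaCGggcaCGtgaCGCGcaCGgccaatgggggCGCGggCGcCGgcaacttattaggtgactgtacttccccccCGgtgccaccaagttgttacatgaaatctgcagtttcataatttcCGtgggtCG
FOXA1, chr14:37595200-37595499, minus strand: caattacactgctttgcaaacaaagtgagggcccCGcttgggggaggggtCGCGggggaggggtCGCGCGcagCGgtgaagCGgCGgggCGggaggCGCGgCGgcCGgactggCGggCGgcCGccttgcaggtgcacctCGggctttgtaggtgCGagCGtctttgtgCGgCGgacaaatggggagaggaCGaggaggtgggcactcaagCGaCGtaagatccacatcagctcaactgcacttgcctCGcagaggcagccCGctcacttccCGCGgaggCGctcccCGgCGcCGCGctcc
PAGE5, chrX:55220096-55220395, plus strand: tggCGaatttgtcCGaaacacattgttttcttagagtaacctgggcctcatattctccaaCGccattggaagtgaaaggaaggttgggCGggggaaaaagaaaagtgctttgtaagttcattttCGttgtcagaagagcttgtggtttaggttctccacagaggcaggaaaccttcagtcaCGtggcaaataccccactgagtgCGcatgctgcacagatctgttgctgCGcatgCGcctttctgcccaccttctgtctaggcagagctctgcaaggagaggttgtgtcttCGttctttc
The window of HOXA9 held 22 CpG at 48.0% GC and contained TATAAA or its complement, that of FOXA1 34 CpG at 69.3% GC, and that of PAGE5 10 CpG at 49.0% GC. Over the lists, 20 of the 23 tested cancer-testis genes and 12 of the 25 tested HOX genes had windows in the RefSeq table. The median number of CpG was 14 in the 28 windows of the cancer-testis genes and 22 in the 19 windows of the HOX genes, against 25 in the tested genes. TATAAA was present in 0% and 21.1% of these windows and GCCNNNGGC in 3.57% and 52.6%. Genes called beyond 2-fold were close to each other and to all tested genes, with a median of 23 CpG in windows of genes higher in HT-1376 and 24 in those of genes lower, and with GCCNNNGGC in 31.7% and 30.7%. A motif match is a match of letters and not a bound site.

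Imprinted genes, which are read from the allele of one parent, were 3 of 14 higher (21.4% against 14.9% of all genes) and 9 lower (64.3% against 35.6%) in HT-1376. H19 was at 488, 148, 75.7, 39.5 and 93.3 CPM in HT-1376 and at 0.5, 0.66, 0.44, 0.6 and 3.21 CPM in CAL-29 (6.42 ± 0.56, adjusted p = 9.84e-05), and PEG10 at 8.77 to 28.4 and 0.05 to 1.12 (4.51 ± 0.40, adjusted p = 9.84e-05). MEST (9.34, 7.15, 0.06, 0 and 1.15 CPM in HT-1376, 37.4 to 92 in CAL-29, -4.65 ± 0.55, adjusted p = 0.000425) and PLAGL1, with no read in HT-1376 (3.88 to 10.1 CPM in CAL-29), were lower. IGF2, the neighbour of H19 with opposite imprinting, was at 13.9, 28.4, 6.71, 3.64 and 5.59 CPM in HT-1376 and 14.3, 69.9, 12.4, 176 and 23.4 CPM in CAL-29, and its difference (-1.91 ± 0.67, adjusted p = 0.0435) was lost with TMM scaling (adjusted p = 0.0667) and without KA (0.0577), WK (0.0507), WA (0.0588) or WC (0.098).

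Antigen presentation was the group with the highest share of genes called higher in HT-1376 after the cancer-testis genes, with 19 of 28 higher and 2 lower (21 and 2 with TMM scaling, 15 and 2 without the WA or the WC libraries), against 14.9% higher among all genes. Some members, among them HLA-G, HLA-DQB1, HLA-DPB1, HLA-DRA and CIITA, reached the filter through HT-1376 only. With 5 CPM required in at least 5 libraries, 12 of 19 were higher and 1 was lower. In the class I pathway, B2M, the common light chain, was at 3311, 3341, 4643, 3587 and 6256 CPM in HT-1376 and 1342, 1847, 3481, 1670.4 and 2095 CPM in CAL-29 (1.05 ± 0.26, adjusted p = 0.0118), and the peptide transporter TAP1 at 70.7 to 106 and 23.9 to 33.6 (1.59 ± 0.20, adjusted p = 0.000629). HLA-C was higher (0.85 ± 0.22, adjusted p = 0.0145, adjusted p = 0.0537 without WA) and HLA-B did not pass (0.61 ± 0.28, adjusted p = 0.101). HLA-G was at 39.3, 54.9, 409.6, 276 and 197 CPM in HT-1376 against 0.17 to 1.07 in CAL-29 (7.13 ± 0.41, adjusted p = 1.29e-05), but HLA genes are close copies and differ between people, so its tags could stem from another class I gene. The class II genes named here, with CIITA, stayed at or under 3.59 CPM in CAL-29 and reached at most 49.1 CPM in HT-1376. HLA-DQB1 was at 2.17, 10.0, 36.5, 23.8 and 49.1 CPM in HT-1376 against 0.45 to 2.43 in CAL-29 (3.34 ± 0.69, adjusted p = 0.00533), HLA-DPB1 at 0.72 to 13.2 and 0 to 0.17 (3.18 ± 0.55, adjusted p = 0.00246), and HLA-DRA at 0.85 to 9.37 and 0 to 1.16 (2.23 ± 0.58, adjusted p = 0.0139, 0.0587 without WA). CIITA, the class II transactivator, was at 1.32, 2.5, 7.11, 7.03 and 11 and 0.9, 1.05, 3.59, 0.16 and 0.28 CPM (1.92 ± 0.59, adjusted p = 0.0263, 0.0983 without WA and 0.0775 without WC). In the variants without the WWOX vector alone, 21 of the 28 members were tested with 2 pairs of libraries, 3 of them called higher and 1 lower.

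Interferon-stimulated genes did not move together. The list gave 4 of 33 higher (12.1%) and 8 lower (24.2%) with the deposited CPM, and 10 higher and 5 lower with TMM scaling, so its balance turned with the scaling. Without the KK, WK or WA libraries 3 were lower, with 4, 6 and 4 higher. The largest differences were those of IFITM genes, membrane proteins that block viral entry and are close copies of each other. IFITM1 was at 1903, 1303, 862, 1046 and 1791 CPM in HT-1376 and 2.75, 17.5, 38.4, 5.51 and 3.94 CPM in CAL-29 (7.19 ± 0.61, adjusted p = 8.62e-05), IFITM2 at 329 to 865 and 0.5 to 3.43 (8.19 ± 0.41, adjusted p = 7.72e-06), and IFITM3 at 358 to 938 and 90.5 to 144 (2.20 ± 0.28, adjusted p = 0.000629). ISG15 was lower in HT-1376 (38 to 163 against 226 to 440.2, -1.95 ± 0.37, adjusted p = 0.00409), and so was OAS2 (-2.27 ± 0.45, adjusted p = 0.00476). Of 28 chemokines, cytokines and inflammatory genes 5 were higher (17.9%) and 9 lower (32.1%), 7 and 6 with TMM scaling, and 3 higher without WA or WC. TNF (5.13 to 21.5 against 0.22 to 1.29 CPM, 3.74 ± 0.31, adjusted p = 7.86e-05) and IL24 (1.25, 59.4, 109, 133 and 129 CPM in HT-1376, at most 0.55 in CAL-29, 6.15 ± 0.87, adjusted p = 0.00098) were higher in HT-1376, with the KK library far below the others for IL24. LCN2, an iron-binding protein of inflamed epithelium, was lower (24.8, 12.9, 139, 29.3 and 114 against 2572, 3184, 2465, 1342 and 334 CPM, -5.15 ± 0.78, adjusted p = 0.00136), as was CXCL6 (-3.41 ± 0.57, adjusted p = 0.00217).

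Along the RB axis, which CDKN2A and CDKN2B restrain, CDK6 was at 0.2, 1.48, 3.33, 3.58 and 2.41 CPM in HT-1376 and 44, 20.4, 23.6, 56.1 and 27.6 CPM in CAL-29 (-3.82 ± 0.46, adjusted p = 0.000469), and cyclin D1, CCND1, at 39.99, 64.6, 41.3, 57.1 and 38.8 and 517, 362, 244, 282 and 216 (-2.69 ± 0.23, adjusted p = 8.07e-05). RB1 was at 2.57 to 4.6 and 7.58 to 25.2 CPM (-1.90 ± 0.34, adjusted p = 0.00297). The 3 genes were lower in HT-1376 without overlap, and CCND1 there was near the 34.3 to 55.9 CPM of RT-112. CDK4 was lower in HT-1376 by a smaller step (-0.63 ± 0.16, adjusted p = 0.0126), a call that was lost with TMM scaling (-0.26, adjusted p = 0.359). The list of the axis held 18 tested genes, 6 higher (33.3% against 14.9% of all genes) and 5 lower (27.8% against 35.6%) in HT-1376, and 4 were higher without KK, KA or WA. The 6 higher genes were CDKN2C (1.94 ± 0.60, adjusted p = 0.0267, lost without KK, KA or WA), an inhibitor related to p16, and, outside the naming rule and after their values were seen, CDKN2D (1.25 ± 0.26, adjusted p = 0.00603), the cyclins CCND3 (1.10 ± 0.18, adjusted p = 0.00193) and CCNE1 (1.45 ± 0.23, adjusted p = 0.00174), CDK2 (1.21 ± 0.36, adjusted p = 0.023) and E2F3, a transcription factor that RB binds (1.70 ± 0.23, adjusted p = 0.000828). In the p53 pathway 4 of 21 were higher (19%) and 6 lower (28.6%), 9 and 4 with TMM scaling, 1 and 3 without the KK libraries, 2 and 7 without KA, 2 and 2 without WA and 2 and 4 without WC, so no balance was read from it. TIGAR (-2.51 ± 0.47, adjusted p = 0.00354) was lower and PLK3 (1.73 ± 0.31, adjusted p = 0.00282) higher in HT-1376, and CDKN1A, the p21 gene and main p53 target (-0.59 ± 0.40, adjusted p = 0.25), and MDM2 (-1.07 ± 0.41, adjusted p = 0.0572) did not pass. Of 25 receptor tyrosine kinases and EGF ligands 4 were higher (16% against 14.9% of all genes) and 8 lower (32% against 35.6%), and without WA 3 and 4, without WK 4 and 5. FGFR3, often altered in bladder carcinoma, was at 0 to 0.97 CPM in HT-1376 against 3.04 to 37.5 in CAL-29 (-3.49 ± 0.36, adjusted p = 0.000213). EPHB2 (-4.58 ± 0.77, adjusted p = 0.00226) was also lower, EREG, a ligand of the EGF receptor, was higher (53.8 to 87.5 against 0.55 to 32.7, 2.80 ± 0.64, adjusted p = 0.00816), and EGFR (-0.65 ± 0.28, adjusted p = 0.0833) and ERBB2 (-0.46 ± 0.30, adjusted p = 0.226) did not pass the test.

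**Figure D3:**
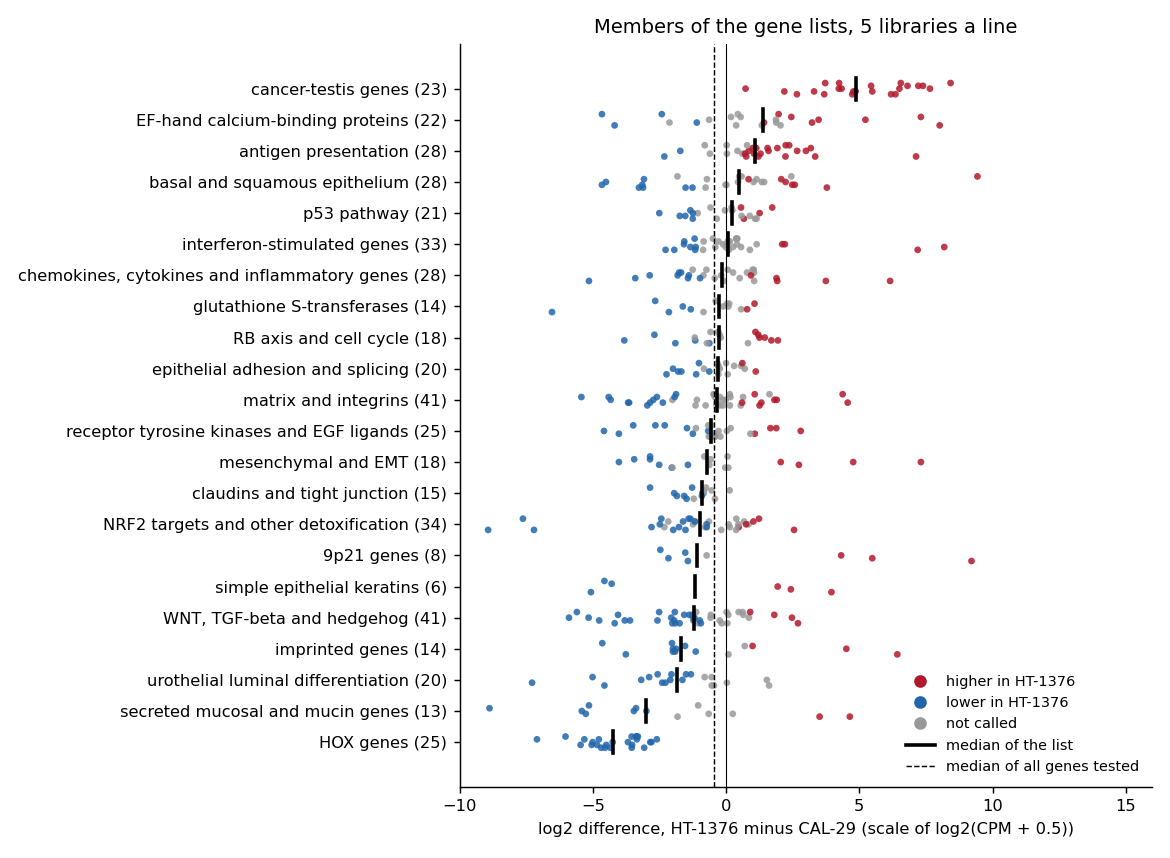
Log2 difference of HT-1376 minus CAL-29 (horizontal axis, on the scale of log2(CPM + 0.5)) of each tested gene in 22 lists, ordered by their median, with the number tested in brackets. Red points were called higher in HT-1376, blue points lower and grey points neither, black bars give the list medians and the dashed line the median of all genes at -0.46. The points of HOX genes lie at -2.60 or below and those of cancer-testis genes at 0.73 or above, while the other lists hold points on both sides or near 0.

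The remaining genes with the largest log2 differences came from many functions. Higher in HT-1376 were NNMT, which methylates nicotinamide (30.5, 201, 192, 419.9 and 417 CPM against 0 to 0.28, 8.13 ± 0.51, adjusted p = 1.81e-05), GTSF1, a factor of the piRNA pathway in the germ line (134, 179, 141, 141 and 149 against 0 to 0.39, 8.02 ± 0.26, adjusted p = 1.14e-06), PNMA5 (115 to 159 against 0 to 0.11), the tubulin TUBA3C (95.5 to 189 against 0 to 0.28), the non-coding IRX2-DT (83.4 to 314 against 0 to 0.45) and CRCT1 of the epidermal cluster (109 to 574 against 0 to 1.35). GTSF1 and PNMA5 were the most even of these over the 5 HT-1376 libraries. Lower in HT-1376 were H4C9, a histone H4 gene (0 to 0.06 against 266, 345, 752, 202 and 688 CPM, -9.56 ± 0.33, adjusted p = 1.28e-06), CYBA, a subunit of NADPH oxidase (0.46 to 2.68 against 463, 585, 825, 529 and 688, -8.60 ± 0.26, adjusted p = 1.14e-06), the growth factor MDK (2.24, 1.99, 5.85, 3.07 and 16.9 against 2783, 1889, 1234, 1313 and 491, -8.10 ± 0.66, adjusted p = 6.71e-05), ZNF655 (0 to 0.07 against 116 to 167), the membrane protein STOM (0 to 0.06 against 122 to 179), VAMP5 (0 to 0.33 against 109.6 to 161), STRA6, a receptor that takes up retinol (0 to 0.27 against 75.5 to 140.4), TPM2 (0.06 to 1.21 against 88.5 to 301) and RAB34 (0 to 0.05 against 82.2 to 109). These 15 genes were picked among called genes without overlap, so their lack of overlap follows from the rule. By absolute difference in mean CPM, ranked among called genes only, the histone genes H3C10 (5356 to 8129 against 612 to 2399 CPM, 2.43 ± 0.42, adjusted p = 0.00259), H1-5 (2.83 ± 0.54, adjusted p = 0.00391) and H2AC17 (2.45 ± 0.40, adjusted p = 0.00198) were among the largest in favour of HT-1376 besides S100A6 and KRT7. The actin gene ACTB was higher as well (7772 to 11685 against 3613 to 9021 CPM, 0.89 ± 0.30, adjusted p = 0.0391), a call lost without KK (0.123), KA (0.0513), WK (0.141) or WA (0.138) and with quantile normalization (0.201). The largest among called genes in favour of CAL-29 were those of GSTP1, KRT19, IGFBP3, which binds insulin-like growth factors (34.7 to 236 against 1453 to 4626, -4.68 ± 0.38, adjusted p = 6.74e-05), LCN2, the ferritin chain FTH1 and the chaperone HSPA5. FTH1 (1405 to 2796 against 2528 to 6163 CPM, -1.16 ± 0.35, adjusted p = 0.0262) lost the call with TMM scaling (0.162), voom (0.118), edgeR (0.165) and DESeq2 (0.0693) and without KK (0.0882), KA (0.0638) or WA (0.0694). HSPA5 was at 6321, 3903, 373, 6795 and 406 CPM in CAL-29 and 157 to 404 in HT-1376 (-2.77 ± 0.53, adjusted p = 0.00389), high in 3 of the 5 CAL-29 libraries and close to HT-1376 in WK and WC. Histone genes are near-identical copies and some overlap each other, so their single values are uncertain.

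Some genes were present in every library of one line and without tags in the other. With at least 5 CPM in 5 of 5 libraries and under 3 reads in each library of the other line, 52 genes were found in HT-1376 only and 44 in CAL-29 only (72 without the WC libraries). The HT-1376 set held 34 protein-coding genes and 16 long non-coding RNAs, 15 of the 52 genes lie on the X chromosome, and 10 belong to the cancer-testis list. CDKN2B and MTAP are in it, as are TRPM2, an ion channel (18.6 to 30.3 CPM against 0 to 0.06), and S100A3. The CAL-29 set held 37 protein-coding genes, among them GSTM1, FOXA1, KRT20, HOXA9, HOXA10, STOM, RAB34 and PEX6. In CDKN2A and CALB2 a few reads in CAL-29 exceeded the limit, so neither is in the set. The libraries left out of the comparison were read against these sets. Of the 52 HT-1376 genes, 49 reached 5 CPM in HT-1376 KC and 51 in the library labelled CAL-29 KC. Of the 44 CAL-29 genes, none reached 5 CPM in either, and 41 and 42 were under 3 reads. The library labelled CAL-29 KC thus had the pattern of HT-1376 for genes of both sets. In RT-112, 6 of the 52 and 13 of the 44 genes reached 5 CPM in all 6 libraries, and 38 and 17 were under 3 reads in all of them.

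The genes whose values over the 10 libraries were most like those of the markers were found by Pearson's r on the log2 scale, as a description. For CDKN2A they were CDKN2B (r = 0.9988), VCX (0.9986) and TRPM2 (0.9982). For GSTM1 they were HOXA9 (0.9999), HOXA10 (0.9994) and PEX6, a peroxisome biogenesis factor (0.9989). For CALB2 they were HYAL3 and NAA80, overlapping genes with the same values (0.9939, 18.1 to 28.7 CPM in HT-1376 against 6.76 to 10.7 in CAL-29), and SLC35F3 (0.9929). For each of these genes the 10 points form 2 clusters, 1 per line. Pair by pair, the share of tested genes that differed beyond 2-fold was 52.2% in KK, 34.5% in KA, 50.2% in WK, 52.8% in WA and 33.9% in WC, and 11.6% between the 2 libraries labelled KC. The median log2 difference of a pair ranged from -0.66 in WA to -0.03 in KA, so the lines were closer in KA and WC than in KK, WK and WA.

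The difference was not spread evenly over chromosomes. On chromosome 7, 45.5% of 617 tested genes were lower in HT-1376 beyond 2-fold and 3.73% were higher, against 27.9% and 9.78% of all genes, and its median was -0.94 (-0.48 relative to all genes). Chromosomes 12, 14 and 20 followed with medians of -0.85, -0.83 and -0.78. Of genes described above, HOXA9, AGR2, IGFBP3, UPK3B, SMO and CDK6, which were lower, lie on chromosome 7, but so do ACTB, COL1A2 and PEG10, which were higher. At the other end, chromosome 16 had a median of 0.05, with 18.5% of 588 genes higher and 17.2% lower. With TMM scaling the medians of chromosomes 7 and 16 were -0.58 and 0.41, so the order stayed and the sign of their distance from the overall median too. These values are given with no test, and gene copies were not measured.

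**Figure D4:**
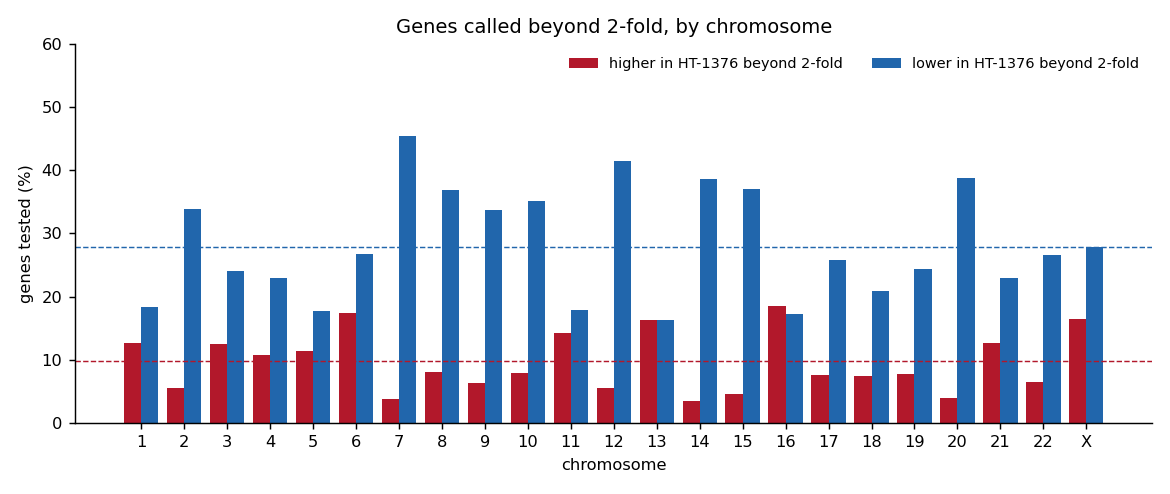
Share of the tested genes of each chromosome, in percent, that were higher (red) or lower (blue) in HT-1376 beyond 2-fold, with dashed lines at the shares of all tested genes (9.78% and 27.9%). Chromosome 7 has the tallest blue bar (45.5%), and on chromosome 16 the red bar (18.5%) is above the blue bar (17.2%).

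Whether the difference between the lines itself changed with the WWOX vector was tested by an interaction term, the line difference in WK, WA and WC minus that in KK and KA, with 3 residual degrees of freedom. It was called in 19 genes (0.149%), against 205 with TMM scaling and 125 with edgeR. Of the 19, 16 were genes with a rise of the HT-1376 values relative to CAL-29 and 3 with a fall, and 1840 genes had an unadjusted p under 0.05. FOXE1, a forkhead factor, was at 0.07, 0.06, 36.2, 19.2 and 16.7 CPM in HT-1376 and 75, 52.6, 134, 56.7 and 38.4 CPM in CAL-29 (5.28 ± 0.45, adjusted p = 0.0164). AKR1C1, a ketosteroid reductase, was at 0.85, 4.71, 63.3, 49.6 and 38.2 and 148, 199, 43.5, 62.7 and 32.2 CPM (6.17 ± 0.52, adjusted p = 0.0164), and its near-identical relative AKR1C2 at 2.17, 6.81, 234, 149 and 166 and 219, 113, 73.8, 98 and 45.6 (6.53 ± 0.70, adjusted p = 0.0314). IFI27L2 (3.61 ± 0.33, adjusted p = 0.0164), WFDC2, a secreted protease inhibitor (4.58 ± 0.43, adjusted p = 0.0164), and CD70, a ligand of the TNF family (5.48 ± 0.57, adjusted p = 0.0314), completed the 6 genes with the smallest p. In 5 of these genes the HT-1376 K libraries were far below both its W libraries and CAL-29, and CD70 was high only in the HT-1376 W libraries. In HT-1376 KC, which carries no WWOX vector, FOXE1 was at 0.21 CPM, AKR1C1 at 9.93, IFI27L2 at 36, WFDC2 at 24.6, CD70 at 16.9 and AKR1C2 at 10.0 CPM. The 3 genes with a fall were ALPP, the placental alkaline phosphatase (482, 575, 32.2, 48.3 and 45 CPM in HT-1376), VGLL1 and PLAC8 (825, 1500.3, 61.5, 164 and 169 CPM). ALPP, VGLL1 and PLAC8 are named after their values were seen. All 6 genes lost the call without the WK (adjusted p from 0.105 to 0.164), WA (0.0507 to 0.0648) or WC libraries (0.1 to 0.117), and CD70 (0.0594) and IFI27L2 (0.0691) also without KK. The count of called genes was 0 without WK, 0 without WA, 1 without WC, 6 without KK and 54 without KA. Since the W libraries of a line share 1 first transduction, the vector and the culture cannot be told apart.

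**Figure D5:**
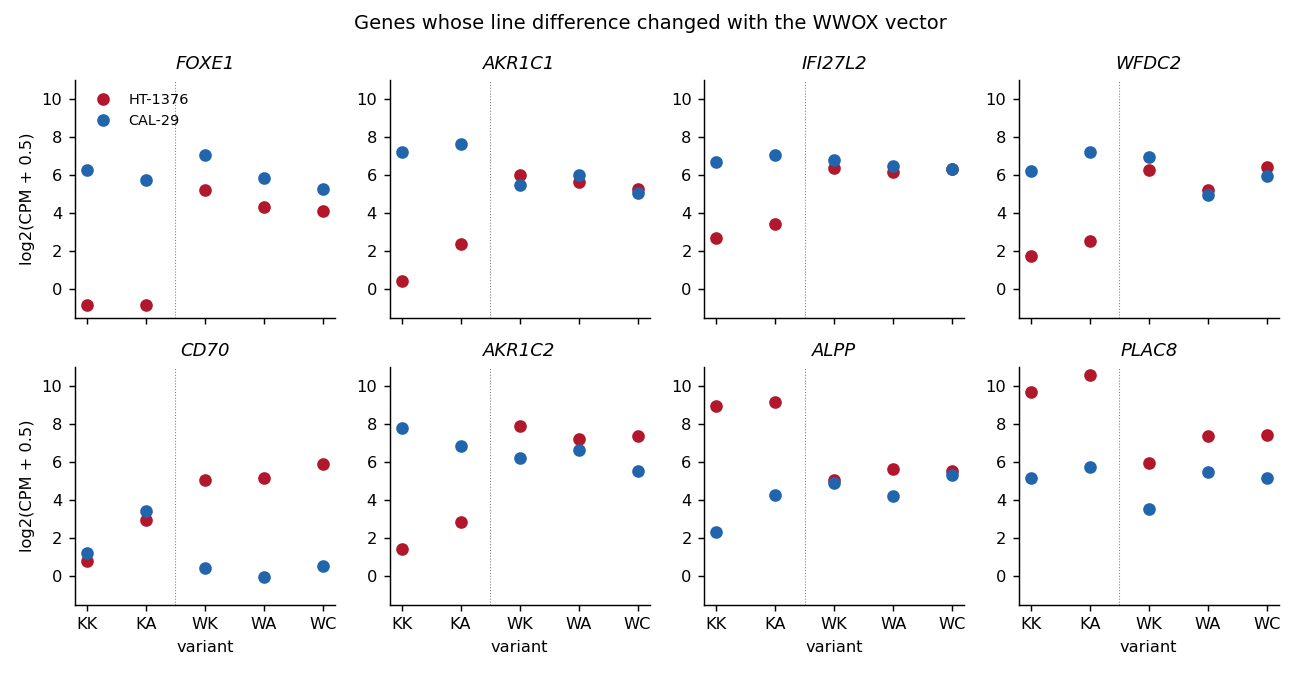
Values of 8 genes with a called interaction as log2(CPM + 0.5) (vertical axis) in the 5 variants (horizontal axis), HT-1376 in red and CAL-29 in blue, with 1 point per library and a dotted line between the K and the W variants. In FOXE1, AKR1C1, IFI27L2, WFDC2 and AKR1C2 the red points rise across the dotted line, in CD70 they rise from the level of CAL-29, and in ALPP and PLAC8 they fall.

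Markers of other cell types were low. In the list of immune cells only CD68 reached the filter (2.1 to 14.7 CPM in HT-1376, 11.2 to 15.5 in CAL-29), and the sum of the list was 2.36 to 15.1 CPM in HT-1376 and 11.3 to 15.9 CPM in CAL-29. In the endothelial list only ESAM did (1.85 to 5.79 and 0.45 to 6.57 CPM). The fibroblast list summed to 6.65 to 64.6 CPM in HT-1376, where COL1A2 was at 2.5 to 46.1 CPM, and to 13.3 to 22.4 CPM in CAL-29, where FAP was at 0.17 to 5.89 CPM. Of the neuroendocrine list 2 genes were tested. CHGA, chromogranin A, was higher in HT-1376 (1.71, 4.09, 34.8, 12.4 and 18 CPM against 0 to 0.05, 4.25 ± 0.58, adjusted p = 0.000829). ENO2 was not called (log2 difference -0.88), and SYP stayed at or under 4.49 CPM in all 10 libraries. The list was too small for its share to be read.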

How the data were processed

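Per the paper's methods and the submitters' processing notes, the authors mapped 75-nucleotide single CAGE reads to hg38 with BWA 0.7.17 and HISAT2 2.0.5, clustered the tags with Paraclu (RECLU) and filtered the clusters by reproducibility. They deposited CPM per gene. CPM values were whole multiples of 1 read in 99.97 to 99.99% of cases (17.4 to 21.4% with a step 1.37 times as large), which gave back the reads. Counting by strand is not given in the sources used here.

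The libraries were compared on log2(CPM + 0.5) with limma 3.58.1 (R 4.3.3, trend, variant as a block, 4 residual degrees of freedom, Benjamini-Hochberg adjustment). Alternatives were TMM and quantile scaling, other pseudocounts and filters, voom, edgeR 4.0.16 and DESeq2 1.42.0 on the recovered reads, no block, RT-112 in the fit, both KC libraries, each variant left out, and the variants with and without WWOX. A fit with HT-1376 KC and no block was added after seeing the data. No pair of libraries of a line agreed within sampling noise (smallest chi-square per degree of freedom 38.6 over 20 pairs). The fit was tested on simulated data.

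The libraries, markers and 29 lists (671 genes) were chosen with earlier results of these data known. Genes were named by rule: the markers, the transduced genes, the 12 called genes without overlap with the largest log2 difference in each direction, the 6 in each direction with the largest difference in mean CPM, up to 4 per list by size, textbook members of a list (written down after the fits had been seen), the 6 interaction genes with the smallest p, and the 3 genes most like each marker. Not all genes of the rule are described, and 1 is not reported here. Promoter windows are those of RefSeq, matched by symbol for 9866 of 12760 genes, and CALB2 and KRT14 had no entry. Gene names and positions are those of GENCODE 44 (16553 of 16575 genes named).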

Additional observations from a re-analysis of the deposited data

Results flagged for a closer look

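The 5 libraries of a line were checked for each named gene that reached 5 CPM in that line. In 10 of 260 such groups 1 library stood apart from the other 4, with a gap of more than 0.71 of the whole range, which chance gives in about 1 in 20 groups. COL4A2 was at 4.25 CPM in CAL-29 WK and at 50.3 to 117 CPM in the other CAL-29 libraries. HOXA10 was at 50.8 CPM in CAL-29 WK (others 25.8 to 30.7), and WWOX at 155 CPM in the same library (others 51.3 to 69.3). In CAL-29 WC, IL1B was at 8.43 CPM (others 3.33 to 4.03) and TFAP2C at 339 CPM (others 70.3 to 93.1). STOM was at 179 CPM in CAL-29 KA (others 122 to 133). In HT-1376 KA, CRCT1 was at 574 CPM (others 109 to 157), KRT80 at 25.5 CPM (others 10.7 to 13.4) and TFAP2A at 101 CPM (others 69.0 to 76.9). IL24 was at 1.25 CPM in HT-1376 KK (others 59.4 to 133).

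By a test of the interaction itself, the difference between the lines differed between the variants labelled W and K in FOXE1 (5.28 on the log2 scale), AKR1C1 (6.17), IFI27L2 (3.61), WFDC2 (4.58), CD70 (5.48) and AKR1C2 (6.53), the 6 genes with the smallest adjusted p. Without WK (adjusted p from 0.105 to 0.164), WA (0.0507 to 0.0648) or WC (0.1 to 0.117) none of the 6 was called, and the vector and the culture cannot be told apart.

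In the library labelled CAL-29 KC, which entered no comparison, 51 of the 52 genes present in HT-1376 only were at 5 CPM or more.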

How the results depend on the processing

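The count of genes higher in HT-1376 beyond 2-fold was 1249 with the deposited CPM, 1993 with TMM scaling, 2100 with quantile normalization, 2062 with voom, 1999 with edgeR and 2214 with DESeq2, and 1073 to 1214 when the libraries of 1 variant were left out. The count of lower genes was 3562, against 2067 with quantile normalization, 2465 with edgeR, 1472 in the variants without the WWOX vector, and 2542 to 4274 when 1 variant was left out. Both KC libraries in the fit gave 957 higher and 2888 lower genes, HT-1376 KC without a block 1253 and 3530, and the fit without the variant block 1251 and 3560. The interaction was called in 19 genes, 205 with TMM scaling, 125 with edgeR and 0 to 54 when 1 variant was left out. Present in HT-1376 only were 52 genes, 30 at a minimum of 10 CPM, 162 at 1 CPM and 54 to 67 when 1 variant was left out. Present in CAL-29 only were 44 genes, 26 at 10 CPM, 121 at 1 CPM and 47 to 72 when 1 variant was left out, the last without WC. CD70 was at 2.87 on the log2 scale and at -0.42 in the variants without the WWOX vector. Of 170 named genes 147 were called, 100 of them in every setting. TMM scaling lost 8 of these calls, leaving out a variant 9 to 17, and the variants without the WWOX vector 33, with 2 pairs of libraries. The causes of these shifts were not tested, and genes near 3 reads are limited by depth.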
